A study of Mus musculus with 4 samples.

Results

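Germinal center follicular helper T cells (GC-TFH) of mice whose TH17-lineage cells lack the TGFβ receptor were compared with those of mice with an intact receptor. The cells were those to which the authors' deposited table gives the identity GC-TFH, 318 labelled TGFβR-KO and 199 labelled TGFβR-WT, together 517 of the 5080 cells in the table. By the suffix of their names the TGFβR-WT cells fall into a set of 141 and a set of 58 cells, called here the larger and the smaller TGFβR-WT set. Nothing ties a suffix to one of the 2 TGFβR-WT samples, so each level is given in both sets. The 263 GC-TFH cells labelled TGFβR-CA are given beside them.

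TFH cells are CD4+ T cells that help B cells mature in germinal centers. They carry the chemokine receptor CXCR5, the costimulatory receptor ICOS and the inhibitory receptor PD-1, and depend on the repressor BCL6. TGFβ binds the type II receptor TGFBR2, which activates the type I receptor TGFBR1 and, through SMAD proteins, induces genes that feed back on the pathway, and in T cells it restrains TH1 and cytotoxic genes.

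Sorted CD4+ T cells that carried YFP came from small intestines of mice aged 7 to 8 months. All groups carried Il-17a-CRE and a YFP reporter behind a floxed stop, so that YFP marks cells that have expressed *Il17a*, and recombination reaches only cells in which this promoter has been active. TGFβR-KO mice had, in addition, floxed *Tgfbr2*, TGFβR-CA mice a constitutively active *Tgfbr1* behind a floxed stop cassette, and TGFβR-WT mice neither. Each of the 4 samples, 1 TGFβR-KO, 1 TGFβR-CA and 2 TGFβR-WT, was a pool of mice. By the study's methods there were 2 sequencing batches, one of TGFβR-KO and TGFβR-WT and one of TGFβR-CA and TGFβR-WT, and which of the TGFβR-WT sets was in which is not known. With 1 TGFβR-KO sample there is no replicate, no test was made and no p-value is given.

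A level here is the sum of a gene's depth-corrected UMIs (unique molecular identifiers, 1 per captured RNA molecule) over the cells of a set, per 10000 corrected UMIs. Where 3 levels or shares follow each other, they are those of TGFβR-KO, the larger and the smaller TGFβR-WT set, in that order. The GC-TFH cells held 1231713 corrected UMIs in TGFβR-KO, 505086 in the larger and 241600 in the smaller TGFβR-WT set, with medians of 3826.5, 3636 and 4253.5 per cell. Since the correction removes the original depth, a share of cells with a gene can still reflect it. Intervals in parentheses after a share are exact Clopper-Pearson 95% intervals, and all intervals cover counting error only.

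A gene was called higher or lower where its ratio to each TGFβR-WT set was at least 1.5 in the same direction. Of 3252 genes with a mean level of at least 0.5, 48 were higher in TGFβR-KO (1.48%) and 115 were lower (3.54%). Counts of list members below are to be read beside these shares. Some genes reach the minimum level only through the sets in which they are high, so such counts are no evidence about a list. Against the larger set alone 101 genes were higher (3.11%) and 249 lower (7.66%), and against the smaller set alone 325 (9.99%) and 582 (17.9%). By the same ratio 822 genes (25.3%) differed between the TGFβR-WT sets, 380 of them higher (11.7%) and 442 lower (13.6%) in the larger set. The SD of the log2 ratio was 0.43 for TGFβR-KO to the larger set and 0.68 to the smaller set, beside 0.60 between the TGFβR-WT sets. The 2 larger SDs both involve the smaller set, which held the fewest corrected UMIs, and the part of counting error in them was not tested. The SD between the TGFβR-WT sets thus lay between those of TGFβR-KO to each of them. Only genes past the ratio against both sets are described as higher or lower. The medians of the log2 ratio over all genes tested were -0.06 against the larger and -0.10 against the smaller set, and ratios were not recentred on them.

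**Figure D1:**
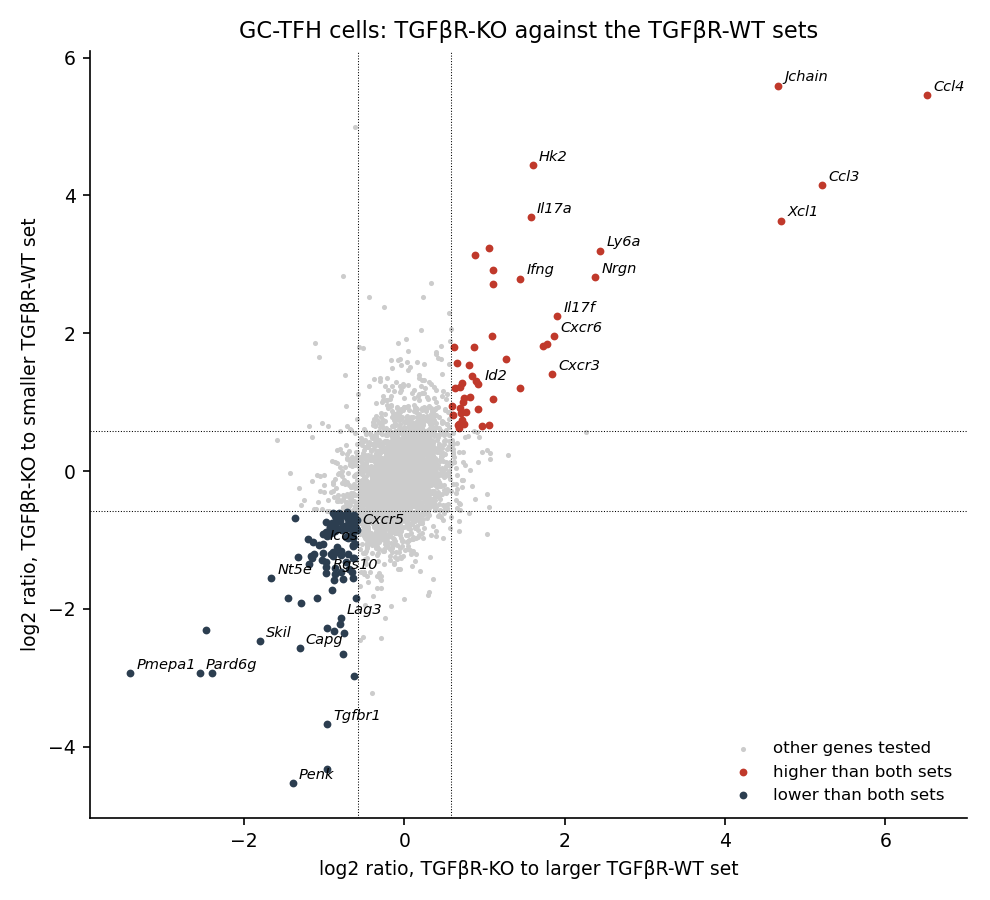
Each point is 1 of 3252 genes, placed by the log2 ratio of its level in TGFβR-KO GC-TFH cells to the larger (horizontal) and the smaller (vertical) TGFβR-WT set. Dotted lines mark a ratio of 1.5 in either direction; the 48 genes higher than both sets are red, the 115 lower ones dark, and *Ccl4*, *Jchain*, *Ccl3* and *Xcl1* lie farthest to the upper right, *Pmepa1* farthest to the left.

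Some values separated the sets irrespective of genotype. *Xist*, the transcript that coats the inactive X chromosome of female cells, had 0 corrected UMIs in TGFβR-KO and in the larger TGFβR-WT set, 229 in the smaller set and 460 in TGFβR-CA. The 12 B cell markers in the table summed to a level of 3.51 in TGFβR-KO, 9.98 in the larger and 1.90 in the smaller TGFβR-WT set, where 10 of the 12 were at 0, *Cd79a* and *Ms4a1* among them. Plasma cell markers summed to 4.21, 1.74 and 1.82, and epithelial markers to 0.203, 0.178 and 0.207. *Cd8a* was at 0 in all sets. What part these differences have in the results below was not tested, apart from the values without B cell marker-positive cells. For leaving out those cells, *Cd74* was not counted as a marker. In TGFβR-KO, 1 cell shared its barcode with a cell of another set.

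The cluster name was checked against the 10 GC-TFH markers in the table. They summed to 42.2 in TGFβR-KO, 59.9 in the larger, 54.1 in the smaller TGFβR-WT set and 59.7 in TGFβR-CA, and at least 1 of them was found in 317 of 318 TGFβR-KO cells. Any 1 marker does not tell GC-TFH from tissue-resident TFH cells, since in TGFβR-KO the latter had *Maf* at 11.4. *Cxcr5* was in 39.3% of TGFβR-KO GC-TFH cells and in 19.1% of TGFβR-KO tissue-resident TFH cells. All 10 were detected in TGFβR-KO. In the smaller TGFβR-WT set *Sh2d1a*, which encodes the adaptor SAP needed for contact with B cells, was at 0. *Cxcr5*, *Bcl6* or *Pdcd1* was detected in 74.8% of TGFβR-KO, 82.3% and 89.7% of TGFβR-WT GC-TFH cells.

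Genes of the TGFβ pathway itself were among those with the lowest ratios. Of 8 feedback and response genes tested, 4 were lower in TGFβR-KO than in both TGFβR-WT sets and none was higher, beside 3.54% lower over all genes tested. The median log2 ratios were -0.92 and -1.18. All 4 were under the minimum level in TGFβR-KO and reached it only through the TGFβR-WT cells. The count and the medians are therefore not a result about the list. *Pmepa1*, which encodes a membrane protein that holds back SMAD signaling (chr2:173224458-173276533 in GRCm38), had the lowest ratio of all genes tested to the nearer set. Its level was 0.146 in TGFβR-KO, 1.56 in the larger and 1.12 in the smaller TGFβR-WT set and 0.765 in TGFβR-CA. Transcripts were found in 4.40% of TGFβR-KO cells (2.43 to 7.28), against 31.2% (23.7 to 39.5) and 27.6% (16.7 to 40.9) of the TGFβR-WT cells. The TGFβR-WT sets were close to each other and TGFβR-KO lay far below both. This low level was not particular to GC-TFH cells, since in tissue-resident TFH cells (TR-TFH) *Pmepa1* was at 0.145 in TGFβR-KO and at 0.499 and 0.991 in the TGFβR-WT sets.

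In the other 3 called feedback genes TGFβR-KO was also below both TGFβR-WT sets, and the larger of these was below the smaller. *Ldlrad4*, another membrane inhibitor of SMAD signaling, was at 0.146, 0.772 and 1.12, and at 1.11 in TGFβR-CA. Without B cell marker-positive cells, and among cells with *Cxcr5*, *Bcl6* or *Pdcd1* (0.154, 0.676 and 1.06), *Ldlrad4* fell under the minimum level and had no call, with ratios to the nearer set of 0.157 and 0.227. *Skil*, which encodes the SMAD corepressor SNON, was at 0.373, 1.31 and 2.07, and 12.3%, 29.8% and 46.6% of cells had it. *Rgs16*, which encodes a regulator that shortens G protein signals, was at 0.382, 0.851 and 0.911, and at 0.933 in TGFβR-CA. Without B cell marker-positive cells, the mean log2 ratio of *Rgs16* moved from -1.21 to -0.49. Its ratio to the larger set was then 1.02, and it fell under the minimum level and had no call. The other tested members, *Ski*, *Cd9*, *Jun* and *Junb*, did not reach the ratio against both sets: *Jun* was at 2.83, 4.53 and 3.97 and *Junb* at 5.30, 6.53 and 5.75. *Smad7* and *Itgae* lay under the minimum level.

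Both receptor genes were lower, but not in the same way. *Tgfbr2*, whose floxed alleles define TGFβR-KO, was at 0.885 in TGFβR-KO, 1.58 in the larger and 1.99 in the smaller TGFβR-WT set and 1.75 in TGFβR-CA. The reads tag the 3' end of transcripts and the sources used here do not say whether the deleted exons lie there, so this level does not check the deletion. *Tgfbr1* was at 0.244, 0.475 and 3.1, and at 0.635 in TGFβR-CA. The gap between the TGFβR-WT sets was wider than that between TGFβR-KO and the larger set. Of the ligand and its activators, *Tgfb1* was at 1.61, 1.68 and 3.64, and *Furin*, the protease that cleaves the TGFβ precursor, at 4.67, 3.23 and 2.15. None of the 5 SMADs and transducers tested reached the ratio against both sets, with *Smad4* at 0.625, 0.653 and 1.08.

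Of these 6 lower genes of the pathway, 3 have a promoter window in the RefSeq table used (build GRCm38.p6): *Rgs16*, *Tgfbr1* and *Tgfbr2*. *Pmepa1*, *Skil* and *Ldlrad4* have none. The 250 bases before the annotated start are shown since these genes were low together in cells labelled as lacking the receptor. Capitals mark CAGAC and its reverse complement GTCTG, the short SMAD-binding element, searched on both strands. The windows are at chr1:153740103-153740352 on the plus strand, chr4:47352972-47353221 on the plus strand and chr9:116175364-116175613 on the minus strand, each written 5′ to 3′.
Rgs16: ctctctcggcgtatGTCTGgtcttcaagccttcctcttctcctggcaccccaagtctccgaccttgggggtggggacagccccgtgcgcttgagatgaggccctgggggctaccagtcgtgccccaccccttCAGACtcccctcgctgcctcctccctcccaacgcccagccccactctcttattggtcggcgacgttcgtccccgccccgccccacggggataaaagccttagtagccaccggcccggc
Tgfbr1: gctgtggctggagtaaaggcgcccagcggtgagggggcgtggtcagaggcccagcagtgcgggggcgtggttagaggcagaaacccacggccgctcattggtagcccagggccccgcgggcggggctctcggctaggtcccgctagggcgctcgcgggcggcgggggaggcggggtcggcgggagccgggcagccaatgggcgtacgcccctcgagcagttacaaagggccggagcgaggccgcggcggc
Tgfbr2: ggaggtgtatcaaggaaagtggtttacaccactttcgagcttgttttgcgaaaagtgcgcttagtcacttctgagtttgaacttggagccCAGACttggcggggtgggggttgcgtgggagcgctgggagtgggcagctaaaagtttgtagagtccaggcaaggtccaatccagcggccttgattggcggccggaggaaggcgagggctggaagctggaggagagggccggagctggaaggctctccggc
*Rgs16* held 2 matches, *Tgfbr2* 1 and *Tgfbr1* none in this window, although a second *Tgfbr1* window in the table held 1. The element is common: 42.2% of all 32851 windows held it, 38.6% of those of genes tested here and 34.1% of the 85 lower genes with a window. A match describes these letters only.

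TFH genes split into a small lower group and a larger one without a call. Of 27 genes of the TFH program tested, 5 were lower in TGFβR-KO than in both TGFβR-WT sets (*Icos*, *Rgs10*, *Sostdc1*, *Angptl2* and *Cxcr5*) and none was higher. The lower genes made up 18.5% of the list, beside 3.54% of all genes tested. The median log2 ratios were -0.30 and -0.21, beside -0.06 and -0.10 over all genes tested. *Icos*, the costimulatory receptor through which B cells sustain TFH cells (chr1:60977927-61000320), was at 3.91 in TGFβR-KO, 7.88 in the larger, 8.15 in the smaller TGFβR-WT set and 7.69 in TGFβR-CA. It was detected in 56.6% of TGFβR-KO cells (51.0 to 62.1) and in 78.7% (71.0 to 85.2) and 77.6% (64.7 to 87.5) of TGFβR-WT cells. TGFβR-KO stood alone below 3 sets that were close to each other. Among cells with *Cxcr5*, *Bcl6* or *Pdcd1*, *Icos* was at 3.53, 7.88 and 7.58. These 5 genes were below both TGFβR-WT sets in TR-TFH cells too, so their low levels were not particular to GC-TFH cells. There *Icos* was at 1.98, 4.33 and 6.43, *Rgs10* at 4.83, 10.0 and 12.9 and *Sostdc1* at 0.259, 0.615 and 1.08. *Angptl2* was at 0.0933, 0.463 and 0.355 and *Cxcr5* at 0.617, 0.909 and 1.25.

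*Rgs10*, which encodes another regulator of G protein signaling, was at 5.63, 11.1 and 15.8, and at 15.1 in TGFβR-CA. The shares of cells with it were 68.2%, 89.4% and 94.8%. *Sostdc1*, which encodes a secreted antagonist of BMP and WNT signals made by TFH cells, was at 2.40, 4.91 and 5.88, and at 5.79 in TGFβR-CA. The shares of cells with it, 14.8% (11.1 to 19.2), 20.6% (14.2 to 28.2) and 24.1% (13.9 to 37.2), had overlapping intervals. In the activated cluster *Sostdc1* had no UMI in any of 318 TGFβR-KO cells, at a median of 3743 corrected UMIs per cell, which limits the share of cells with a UMI to 0.943% but not the share that expresses it. *Cxcr5*, the receptor that brings TFH cells into follicles (chr9:44511787-44561877), was at 1.64, 2.49 and 2.90. Its ratio to the larger set was 0.657, close to the limit, and *Cxcr5* lost its call where the ratios were recentred on their median, where cells were weighted the same and among cells with *Cxcr5*, *Bcl6* or *Pdcd1*. *Angptl2*, which encodes a secreted angiopoietin-like protein, was at 0.723, 1.43 and 1.20.

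**Figure D2:**
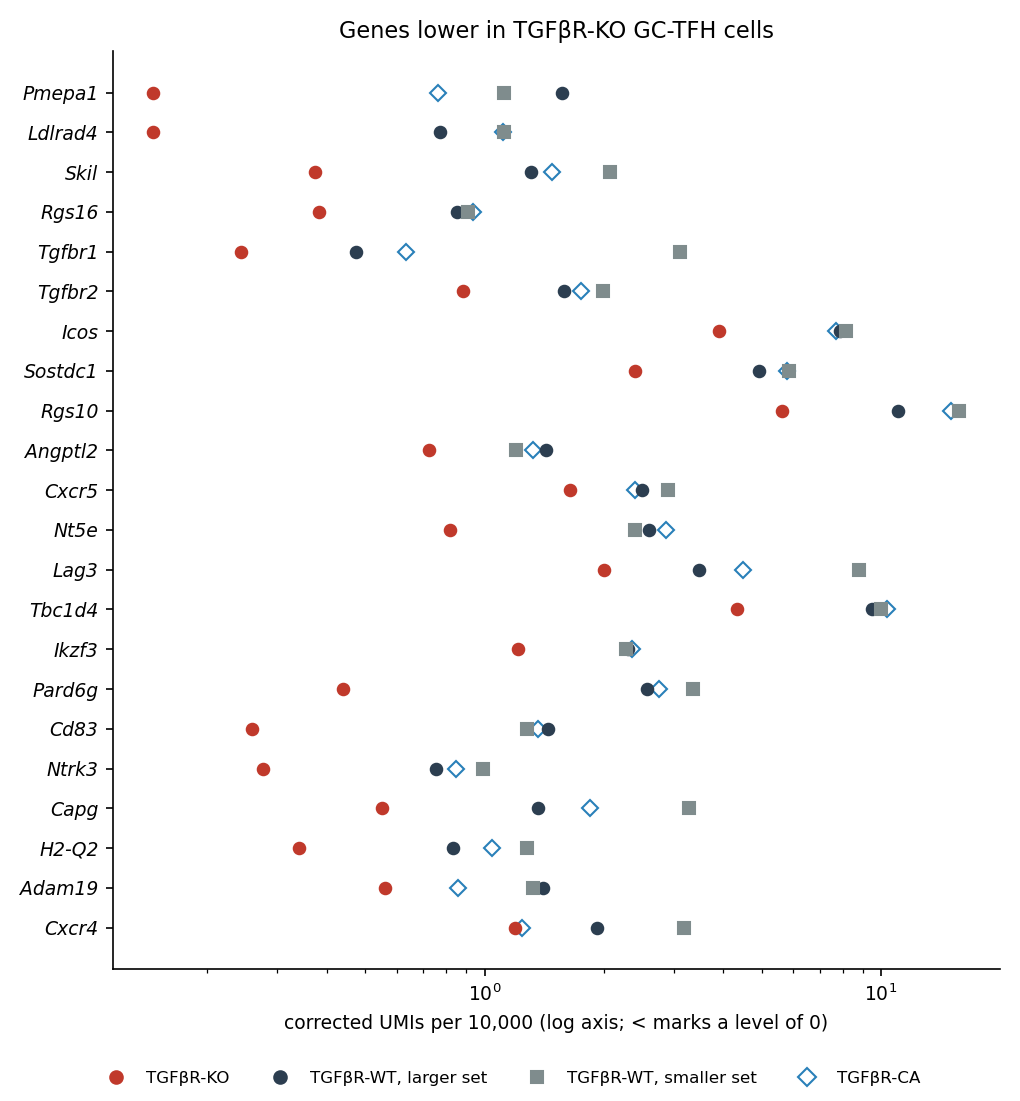
Levels of 22 genes lower in TGFβR-KO than in both TGFβR-WT sets, in corrected UMIs per 10000 on a log axis, with 1 symbol for each set of GC-TFH cells. In every row the red TGFβR-KO point lies left of both TGFβR-WT points; the TGFβR-CA diamond lies among or near them for *Icos*, *Sostdc1*, *Nt5e* and *Tbc1d4* and beside TGFβR-KO for *Cxcr4*.

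The remaining TFH genes did not reach the ratio against both sets, and several stood on different sides of the 2 sets. *Bcl6*, the repressor that defines the lineage, was at 1.85 in TGFβR-KO, between the 2.59 of the larger and the 1.45 of the smaller set. *Pdcd1*, which encodes PD-1, was at 4.42, 4.57 and 5.67, and *Maf*, a factor that drives *Il21*, at 18.7, 27.2 and 22.8. *Il21* itself, the cytokine that supports germinal center B cells, was at 1.57, 2.77 and 1.61. Of 12 genes for B cell help, *Icos* and *Penk* were lower and *Tnfsf14*, which encodes the TNF family ligand LIGHT, was higher (1.02, 0.475 and 0.497). Over all genes tested 3.54% were lower and 1.48% higher. *Tnfsf14* reached the minimum level only through TGFβR-KO and *Penk* only through the TGFβR-WT cells. *Cd40lg*, the ligand through which T cells activate B cells, was at 3.40, 2.95 and 2.77. *Penk*, the precursor of enkephalins, rested on single cells, since 1 cell held 76.2% of its UMIs in the larger and 93.8% in the smaller TGFβR-WT set.

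Of 9 inhibitory receptors tested, 2 were lower (*Nt5e* and *Lag3*) and 1 was higher (*Cd160*), beside 3.54% lower and 1.48% higher over all genes tested. *Nt5e*, which encodes CD73, the ectoenzyme that makes adenosine (chr9:88327197-88372092), was at 0.820 in TGFβR-KO, 2.59 and 2.40 in the TGFβR-WT sets and 2.87 in TGFβR-CA. In TGFβR-KO 25.2% of cells (20.5 to 30.3) had it, against 51.1% (42.5 to 59.6) and 58.6% (44.9 to 71.4). *Lag3*, an inhibitory receptor that binds MHC class II, was at 2.01, 3.48 and 8.82, with the TGFβR-WT sets far apart. In TR-TFH cells *Nt5e* was at 0.617 in TGFβR-KO and at 2.43 and 2.15 in the TGFβR-WT sets.

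Most other genes with low ratios were in none of the lists. *Pard6g*, a cell polarity gene, was at 0.438, 2.57 and 3.35, the second lowest ratio to the nearer set, and 9.75% of TGFβR-KO cells had it against 37.6% and 53.4%. *Tbc1d4*, a Rab GTPase-activating protein of glucose transporter traffic, stood at 4.34, 9.46 and 10.0, with TGFβR-CA at 10.4. *Cd83*, an activation marker also found on germinal center B cells, was at 0.26, 1.45 and 1.28. It kept its call without B cell marker-positive cells, and any other part of the B cell marker levels given above was not tested. *Ntrk3*, which encodes a neurotrophin receptor, was at 0.276, 0.752 and 0.993.

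*Capg*, which encodes an actin-capping protein and was also on the list of regulatory T cell genes, was at 0.552, 1.37 and 3.27. *Adam19*, a membrane metalloprotease gene, was at 0.560, 1.41 and 1.32, and *H2-Q2*, an MHC class Ib gene, at 0.341, 0.832 and 1.28. *H2-Q2* has close relatives in its family, among which reads may be split, and is uncertain for that reason. *Spock2*, a proteoglycan gene, was at 0.926, 1.94 and 1.95, and *Ikzf3*, which encodes the lymphoid factor Aiolos, at 1.22, 2.30 and 2.28. *Tubb2a*, a β-tubulin gene, was at 0.390, 0.891 and 0.993 and *Fam111a*, a protease gene, at 0.317, 0.713 and 0.745. *Cxcr4*, which draws cells to the dark zone and to bone marrow, was at 1.19, 1.92 and 3.19, while TGFβR-CA, at 1.24, lay beside TGFβR-KO. *Rgs1*, which restrains chemokine receptors, was at 0.641, 1.17 and 1.70. The mitochondrially encoded *mt-Nd3* was at 3.99, 7.21 and 6.50, and at 1.82 in TGFβR-CA.

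Among higher genes, a group was raised across many cells. *Ly6a*, which encodes the surface protein SCA-1 (chr15:74994877-74998031), was at 5.71 in TGFβR-KO, 1.05 in the larger, 0.621 in the smaller TGFβR-WT set and 0.280 in TGFβR-CA. It was detected in 56.3% of TGFβR-KO cells (50.6 to 61.8), against 14.2% (8.88 to 21.1) and 13.8% (6.15 to 25.4), and no cell held more than 2.70% of its UMIs in TGFβR-KO. TGFβR-KO stood far above both TGFβR-WT sets, whose intervals overlap. In TR-TFH cells *Ly6a* was at 4.81 in TGFβR-KO and at 0.615 and 1.22 in the TGFβR-WT sets.

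*Ms4a4b*, which encodes a tetraspan membrane protein of T cells, was at 5.67, 1.70 and 1.61, and 65.7%, 29.1% and 32.8% of cells had it. *Cxcr6*, a chemokine receptor of tissue-resident T cells (chr9:123806475-123811760), was at 2.74, 0.752 and 0.704, and at 0.345 in TGFβR-CA. Cells with *Cxcr6* made up 38.4% (33.0 to 44.0), 16.3% (10.6 to 23.5) and 8.62% (2.86 to 19) of the sets. *S100a6*, a calcium-binding protein gene of effector cells, was at 4.75, 1.39 and 1.32, but TGFβR-CA, at 2.92, was also above both TGFβR-WT sets. *S100a4* of the same family was at 2.28, 1.17 and 1.45. These genes are not restricted to GC-TFH cells: in the activated cluster of TGFβR-KO, *Cxcr6* was at 13.1, *Ly6a* at 10.3 and *Ms4a4b* at 8.56. How the limits of the clusters bear on the GC-TFH levels was not tested, but among cells with *Cxcr5*, *Bcl6* or *Pdcd1* *Ly6a* was still at 4.71, 0.918 and 0.555 and *Cxcr6* at 1.96, 0.483 and 0.462.

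**Figure D3:**
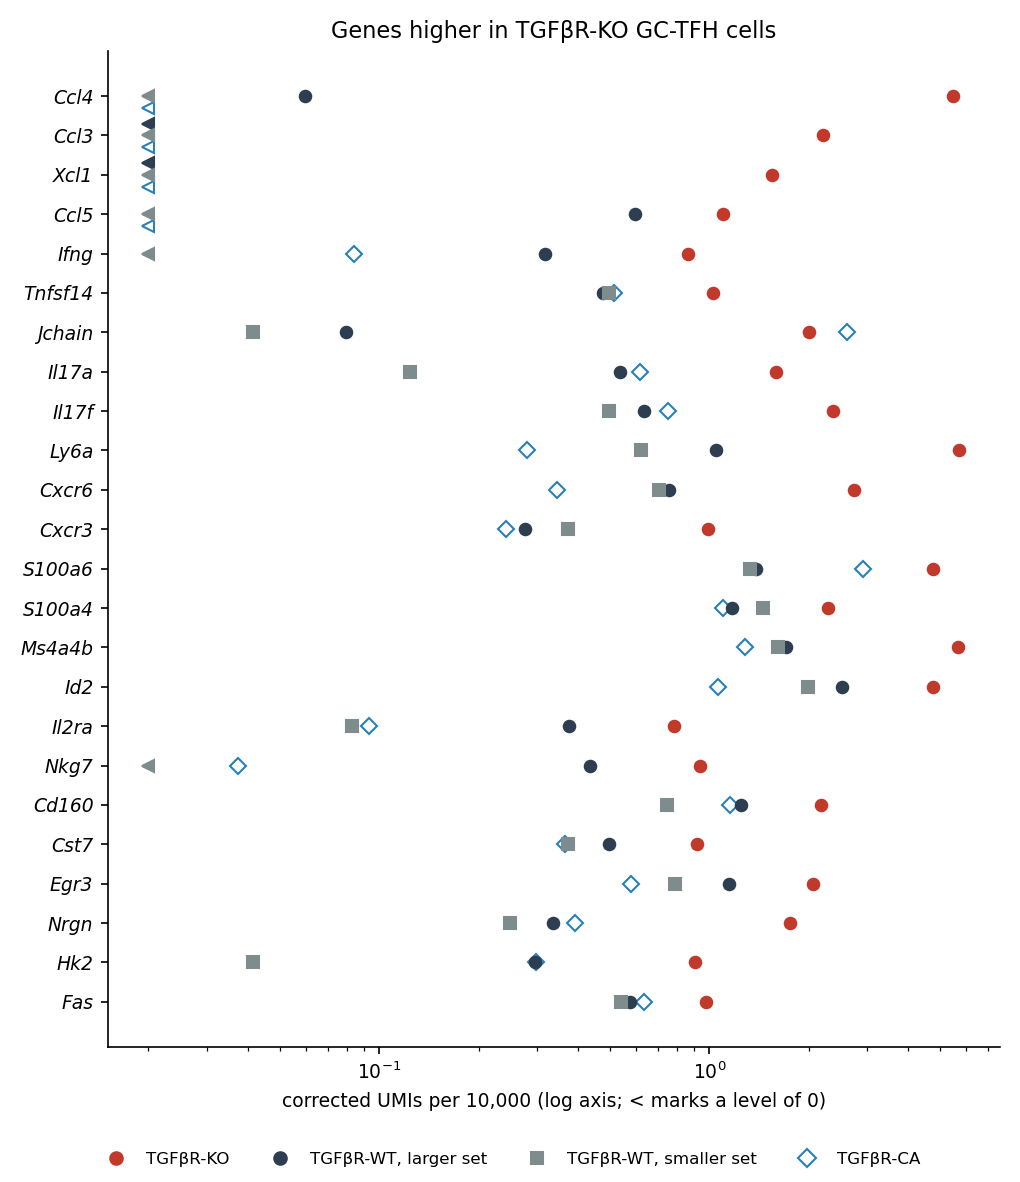
Levels of 24 genes higher in TGFβR-KO than in both TGFβR-WT sets, in corrected UMIs per 10000 on a log axis, with 1 symbol for each set of GC-TFH cells; triangles at the left edge mark a level of 0. The red TGFβR-KO point lies right of both TGFβR-WT points in every row, by the widest gap for *Ccl4*, *Ccl3*, *Xcl1* and *Jchain*, and TGFβR-CA lies above TGFβR-KO for *Jchain*.

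A pair of genes that oppose the TFH fate were higher among 11 tested, and none was lower, with median log2 ratios of 0.23 and 0.27. Over all genes tested 1.48% were higher. Of the pair, *Il2ra* reached the minimum level only through TGFβR-KO, so the count is not a result about the list. *Id2*, which encodes an inhibitor of E proteins and is kept low in TFH cells, was at 4.77, 2.51 and 1.99, and at 1.06 in TGFβR-CA. Of TGFβR-KO cells 57.2% (51.6 to 62.7) had it, against 31.2% (23.7 to 39.5) and 32.8% (21 to 46.3). Without the cells that had a B cell marker, *Id2* lost its call. *Il2ra*, the high-affinity chain of the IL-2 receptor, was at 0.779 and 0.376 in TGFβR-KO and the larger set and had 2 corrected UMIs in the smaller set, a ratio of 9.42 with a counting interval of 2.54 to 78.9. *Il2ra* fell under the minimum level, and so had no call, with each cell weighted the same, without cells that had Mki67 or Top2a and among cells with *Cxcr5*, *Bcl6* or *Pdcd1*, where its ratio to the larger set was 1.53. The other members reached no such ratio, among them *Gpr183* at 3.13, 2.28 and 2.48 and *Selplg* at 0.658, 0.515 and 0.538.

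Of 12 TH1 genes tested, 3 were higher (*Ly6a*, *Cxcr3* and *Ifng*) and none was lower, beside 1.48% higher over all genes tested. The median log2 ratios were 0.33 against both sets. *Cxcr3* and *Ifng* reached the minimum level only through TGFβR-KO, so the count and the medians are not a result about the list. *Cxcr3*, the chemokine receptor of TH1 cells, was at 0.991, 0.277 and 0.373, and 20.1%, 7.09% and 6.90% of cells had it. *Ifng*, the defining TH1 cytokine, was at 0.861 in TGFβR-KO and 0.317 in the larger set, and at 0 in the smaller set, against which it was at least 6.93-fold higher with 3 corrected UMIs as the floor. It was detected in 8.81% of TGFβR-KO cells, against 37.1% of activated TGFβR-KO cells, and 35 of its 106 UMIs lay in 1 cell. *Ifng* had no call in the same 3 settings as *Il2ra*, since it fell under the minimum level, while its ratios to the larger set there were 2.51 to 2.73. *Tbx21*, which encodes the TH1 factor T-BET, lay under the minimum level.

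The effector cytokines and chemokines held some of the largest ratios, in few cells. Of 9 tested, 6 were higher and none lower. Of these, *Ccl4*, *Ccl3* and *Xcl1* reached the minimum level only through TGFβR-KO, where 1 cell held most of their UMIs. The count is therefore not a result about the list. *Ccl4*, an inflammatory chemokine gene (chr11:83662584-83664683), was at 5.45 in TGFβR-KO and at 0.0594 and 0 in the TGFβR-WT sets. In TGFβR-KO 617 of its 671 UMIs came from 1 cell, and 8 of 318 cells (2.52%) had any. The larger set had 3 UMIs, which gives a ratio of 91.7 with a counting interval of 31.2 to 446. In the larger set these UMIs lay in 1 cell, a share of 0.709%.

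The same TGFβR-KO cell held all 271 UMIs of *Ccl3* and 183 of the 190 of *Xcl1*. Both genes were at 0 in the TGFβR-WT sets and in TGFβR-CA, and so at least 17.7-fold and 12.4-fold higher in TGFβR-KO by level, with 3 corrected UMIs per set as the floor, but without that cell *Ccl3* was at 0 and *Xcl1* at 0.0568. This cell was also the highest TGFβR-KO cell for *Ccl5* (60 UMIs), *Cd160* (63), *Nkg7* (40), *Ifng* (35) and *Tnfsf14* (8). It had 4429 corrected UMIs in all, 2 of *Cd4*, 4 of *Cd3e*, 5 of *Il21*, 1 of *Pdcd1*, and none of *Cxcr5*, *Bcl6* or *Cd8a*.

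*Ccl5* was at 1.10 in TGFβR-KO, 0.594 in the larger set and 0 in the smaller set and TGFβR-CA. It was detected in 10.7% of TGFβR-KO GC-TFH cells, close to the 12.1% of TGFβR-KO TR-TFH cells, while 96.6% of TGFβR-KO cells of the cytotoxic cluster had it, at medians of 3826.5, 3575 and 3643 corrected UMIs per cell. A share so near that of TR-TFH cells cannot be told from background, and the part of free RNA was not tested. Of 5 cytotoxic granule genes tested, *Nkg7*, *Cd160* and *Cst7* were higher, beside 1.48% over all genes tested. *Nkg7* and *Cst7* reached the minimum level only through TGFβR-KO, so the count is not a result about the list. *Cst7*, which encodes the protease inhibitor cystatin F, was the one least bound to single cells, at 0.917, 0.495 and 0.373 in 24.5%, 13.5% and 13.8% of cells. *Cd160*, a receptor of cytotoxic cells, was at 2.18, 1.25 and 0.745, and at 1.66 in TGFβR-KO without its highest cell. *Nkg7*, a granule protein gene, was at 0.934, 0.436 and 0.

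Among 15 TH17 genes tested, the 2 IL-17 genes were higher and none was lower, beside 1.48% higher over all genes tested. *Il17a* reached the minimum level only through TGFβR-KO. *Il17f* was at 2.37, 0.634 and 0.497, but 172 of its 292 TGFβR-KO UMIs lay in 1 cell and the shares of cells with it lay close together, at 6.29%, 6.38% and 6.90%. It was the one of the 48 higher genes whose share of cells was not above both TGFβR-WT sets. *Il17a* was at 1.59, 0.535 and 0.124 in 7.86%, 7.09% and 5.17% of cells, and at 0.958 in TGFβR-KO without its highest cell. Both lost their calls by share of cells, and among cells with *Cxcr5*, *Bcl6* or *Pdcd1* both fell under the minimum level. *Jchain*, which encodes the joining chain of secreted antibodies and is a plasma cell marker, was at 2.0, 0.0792 and 0.0414, and at 2.61 in TGFβR-CA. In TGFβR-KO 205 of its 246 UMIs came from 1 cell, and 3.14%, 2.84% and 1.72% of cells had it.

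**Figure D4:**
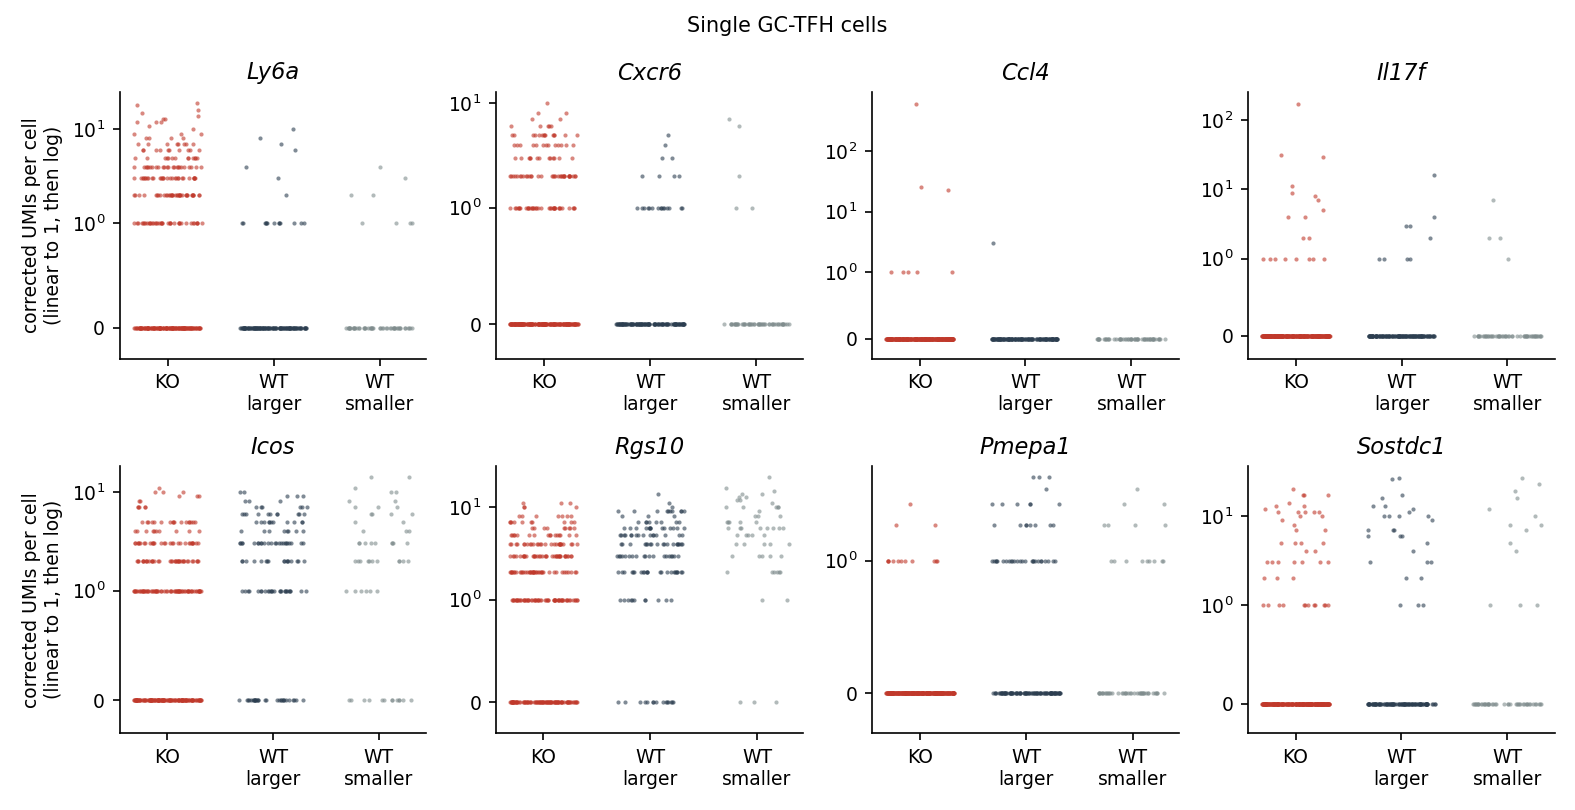
Corrected UMIs of 8 genes in every GC-TFH cell of TGFβR-KO (318 cells), the larger (141) and the smaller (58) TGFβR-WT set, on an axis that is linear to 1 and logarithmic above; points are spread sideways at random. *Ly6a* and *Cxcr6* are present in many TGFβR-KO cells, while the highest *Ccl4* cell, at 617, and the highest *Il17f* cell, at 172, stand far above the rest.

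Other genes with high ratios were found in more cells. *Nrgn*, a calmodulin-binding protein gene, was at 1.75, 0.337 and 0.248 in 18.6%, 10.6% and 8.62% of cells. *Hk2*, which encodes the inducible hexokinase that starts glycolysis, was at 0.901 and 0.297 and had 1 UMI in the smaller set, a ratio of 21.8 with a counting interval of 3.83 to 868. *Hk2* was the 1 higher gene among 12 of glycolysis and reached the minimum level only through TGFβR-KO. It fell under the minimum level, and so had no call, without cells that had *Mki67* or *Top2a*. The same held among cells with *Cxcr5*, *Bcl6* or *Pdcd1*, where its ratio to the larger set was 1.59. *Ifih1*, which encodes the RNA sensor MDA5, was at 0.763, 0.317 and 0.248, while none of the 10 interferon response genes tested reached the ratio in both comparisons.

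Few members of further lists were called, beside 1.48% higher and 3.54% lower over all genes tested. *Cxcr3*, *Il2ra* and *Themis* reached the minimum level only through TGFβR-KO, and *H2-Q2* only through the TGFβR-WT cells. These counts are therefore not a result about the lists. Of 12 homing and integrin genes tested, *Cxcr6* and *Cxcr3* were higher and *Cxcr4* was lower. Among 5 regulatory T cell genes *Il2ra* was higher and *Capg* lower, and *H2-Q2* was the 1 of 19 MHC class I genes that was lower. *Egr3*, an early gene of T cell receptor signals that promotes TFH cells, was at 2.05, 1.15 and 0.786 and was the 1 higher gene among 29 immediate early and receptor-induced genes, with *Rgs1* the 1 lower. Without B cell marker-positive cells its ratio to the larger set was 1.42, and it had no call. *Themis*, a signaling protein of the T cell receptor, was the 1 of 27 in its list, at 0.723, 0.396 and 0.207, and fell under the minimum level without those cells. *Fas*, the death receptor that germinal center cells carry, was at 0.974, 0.574 and 0.538 and was the 1 of 10 survival and apoptosis genes. No gene was called among 13 heat shock chaperones, 8 cell cycle genes or 82 ribosomal protein genes, although the ribosomal genes had median log2 ratios of 0.24 and 0.32, above those of all genes tested.

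**Figure D5:**
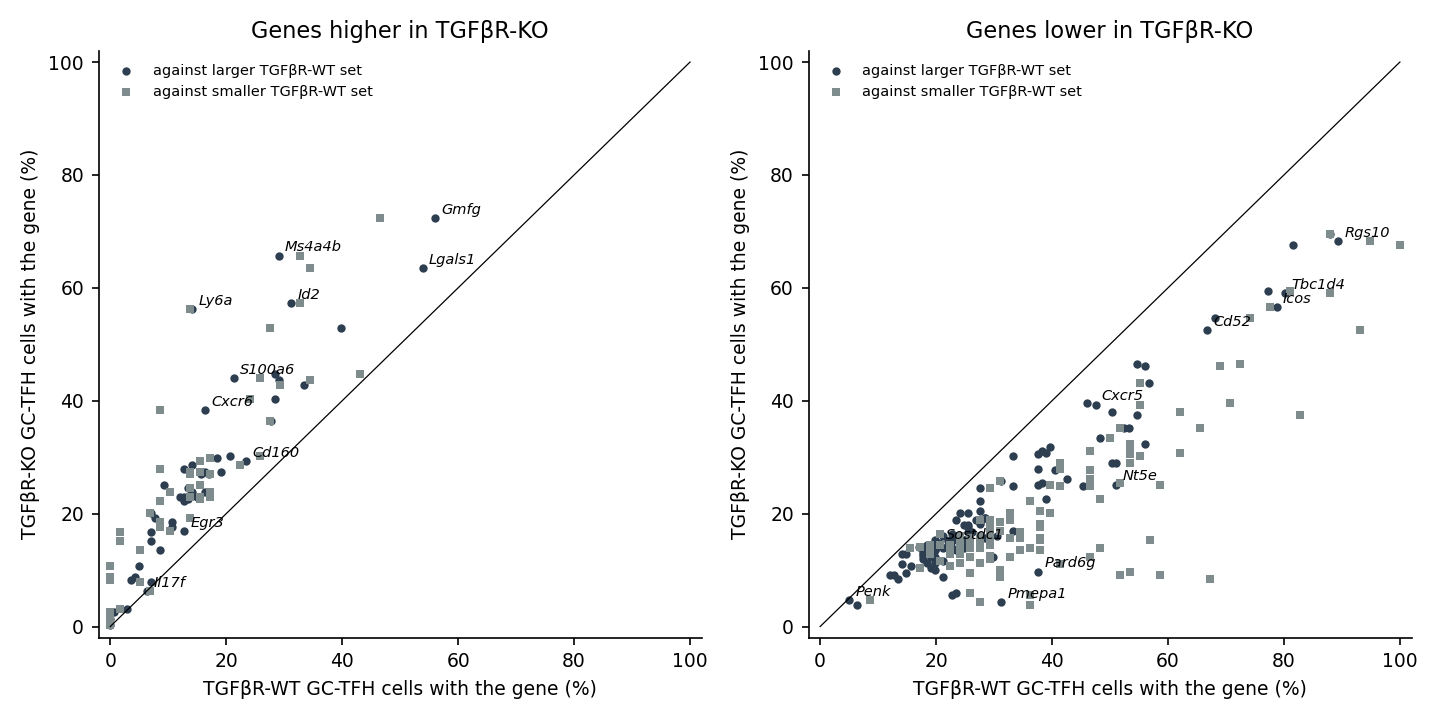
Percent of GC-TFH cells in which a gene was detected, TGFβR-KO (vertical) against the larger (circles) and the smaller (squares) TGFβR-WT set, for the 48 higher genes on the left and the 115 lower genes on the right; the line marks equal shares. *Ly6a*, *Ms4a4b*, *Id2* and *Cxcr6* lie well above the line and *Pmepa1*, *Pard6g*, *Nt5e* and *Icos* well below it, while *Il17f* lies on it.

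All 115 lower genes were detected in a smaller share of TGFβR-KO cells than of either TGFβR-WT set, and 47 of 48 higher genes in a larger share. Shares come from the same UMIs as the levels that chose these genes, so this agreement in direction is no separate evidence. With the ratio of 1.5 applied to shares, 24 of the 48 and 39 of the 115 kept their calls. At least 50% of the TGFβR-KO UMIs came from 1 cell for 5 of the 48 higher genes: *Ccl4*, *Ccl3*, *Xcl1*, *Jchain* and *Il17f*. Of the higher genes 20 belonged to a fixed pathway list and 28 to none, and of the lower genes 18 belonged to one and 97 to none. At the weak end of the calls were *Tomm70a*, with a ratio of 1.51 to the nearer set, and *Slc6a6*, with 0.665.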

How the data were processed

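The authors aligned and counted 3' tags with Cell Ranger 3.1.0 on mm10 (per the submitters' processing notes), filtered cells, applied SCTransform in Seurat, integrated and named 8 clusters, having dropped γδ T and epithelial cells. Doublet handling is not given in the sources used here, and no doublets were called. Each deposited value, over 13265 genes, is a natural log, ln(1 + x), with x the UMIs the authors corrected to a common depth. Exponentiation gave whole numbers (tolerance 1e-06), which are depth-corrected, and count models were left out.

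Levels per 10000 were summed over cells. Genes entered where the mean of the TGFβR-KO level and that of all TGFβR-WT cells reached 0.5. A level of 0 was set to 3 corrected UMIs for ratios, and no ratio was formed where both sets were at or under this floor, as for *Xist* against the larger set. Genes named are the 15 called with the largest and the 15 with the smallest ratio to the nearer set, the receptors, GC-TFH markers and called members of fixed lists, with other members for context. *Spock2*, *Ikzf3*, *S100a4*, *Tomm70a*, *Slc6a6* and *Xist* were chosen after their values were seen. The cells and gene lists were chosen with earlier results of these data known.

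Alternatives changed the filter, ratio, added constant, cell weighting, scaling and cells used. Positions come from GENCODE vM21 (GRCm38). Calling was tested on simulated data. Python 3.11.15, numpy 2.4.6, pandas 2.3.3, scipy 1.17.1 and matplotlib 3.10.9 were used.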

Additional observations from a re-analysis of the deposited data

How the results depend on the processing

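The counts of 48 higher and 115 lower genes depended on where the limits were set. With a minimum level of 0.2 they were 133 and 304, with 1 they were 21 and 42, and with none 326 and 628. A ratio of at least 2 left 21 and 21, and 0.5 added to each level left 22 and 33. Without ribosomal and mitochondrial genes 94 were higher and 114 lower, and with the median ratio set to 1, 70 were higher and 80 lower, so that the split between directions moved with the scaling. Against all TGFβR-WT cells together, 86 were higher and 295 lower. Leaving out one TGFβR-WT set in turn gave 101 to 325 higher and 249 to 582 lower genes, the wider counts against the smaller set of 58 cells alone.

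Chosen after seeing the data, the ratio of shares of cells gave 28 higher and 44 lower genes, without *Icos*, *Rgs10*, *Sostdc1*, *Cxcr5*, *Tbc1d4* and *Lag3*, and leaving out the highest cell of each gene in each set gave 75 higher genes, without *Ccl3* and *Xcl1*, and 84 lower genes, without *Penk*, *Cxcr5* and *Angptl2*. *Il17f* reversed, from a higher level to a mean log2 ratio of -0.077 by share of cells and of -1.55 among cells with *Cxcr5*, *Bcl6* or *Pdcd1*. Without cells that had a B cell marker, 38 of the 48 and 66 of the 115 remained. Among genes named above, *Id2*, *Egr3*, *Ikzf3* and *Cxcr4* then missed the ratio, and *Jchain*, *Themis*, *Ldlrad4*, *Rgs16*, *Ntrk3*, *H2-Q2*, *Tubb2a* and *Fam111a* fell under the minimum level. Under all 18 alternatives *Cxcr6*, *Ly6a*, *Ms4a4b*, *Nrgn* and *S100a6* stayed higher and *Capg*, *Nt5e*, *Pard6g* and *Spock2* lower. Some of the 18 could not remove a call, since they only loosen the rule. These were the minimum level of 0.2, no minimum level, either TGFβR-WT set left out, and the TGFβR-WT cells together. No paired analysis was possible because TGFβR-WT cells could not be tied to a sample number and the TGFβR-KO label carries none. The TGFβR-KO sample has no replicate, so spread between mice is not known, and sex, batch and genotype cannot be told apart where they move together.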
